A study of Mus musculus with 6 samples.

Results

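The mKitK641E(PT) line was compared with the vector line mVec across every measured gene. Both derive from melan-a melanocytes, immortalized cells of the C57BL/6J strain, and are called PT and mVec here. PT carries Kit with the K641E substitution and is labelled as melanoma transformed by it, and mVec received the control vector alone. A further line with the same substitution, mKitK641E(T) or T, served to test what set PT apart. All lines were grown in RPMI with 10% serum without other treatment. The comparison used 4 of the 6 arrays, the 2 PT arrays (titled hi exp) and the 2 mVec arrays (titled CD516B2), and 19505 of 19505 genes, each by its probe set with the highest mean over the 6 arrays. The sources used here do not say what PT, T and hi exp stand for, nor whether the lines are clones. Each group is 1 line, so an effect of the Kit substitution and any other difference between the lines cannot be told apart. The labels number the arrays of a group without saying that they came from separate cultures, and p-values then measure only the spread between these arrays, which may be technical.

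Kit is the receptor for stem cell factor. Its binding turns on RAS, ERK and PI3K signalling in melanocytes, and K641E is an activating substitution in the kinase domain. Melanocytes that divide in culture balance pigment production against growth, and transformed cells are known for high demand on ribosome assembly, nucleotide supply and mitosis.

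Values are deposited log2 expression values from the Affymetrix Clariom S array. Each array's background limit was the 95th percentile over 5222 negative controls and lay between 8.74 and 9.16. Between 29.0% and 32.6% of gene probe sets were above it. A gene was counted as above background in a line when both arrays passed their limits, which held for 5796 genes in PT and 6178 in mVec. Replicate arrays correlated across genes at r = 0.9943 in PT and 0.9953 in mVec, a description since genes are not independent. Differences were tested with limma over all 22206 gene probe sets and called at a Benjamini-Hochberg adjusted p under 0.05. Folds are on the deposited scale, and "at least" marks a fold against the background limit where 1 line had no array above it.

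The Kit probe set was at background on every array. Kit read 4.53 and 3.84 on the PT arrays and 4.68 and 4.97 on the mVec arrays, all far under the limits, and its difference of -0.63 (SE 0.30) did not pass (limma adjusted p = 0.141). Whether this probe set reports the transduced Kit is not stated, so the values do not show whether the transgene was expressed. Most defining markers of the labelled cell type were at background, with 2 of 13 melanocyte markers above background in PT and 2 in mVec. Tyr, Tyrp1, Dct, Pmel, Mlana, Slc45a2 and Sox10, which make or package melanin or specify the lineage, were at background on every array. Pax3, a neural crest factor of the melanocyte lineage, was bright at 12.87 and 12.70 in PT and 14.13 and 14.06 in mVec, so that it fell by 1.32 (SE 0.21, limma adjusted p = 0.000728). Gpnmb, a melanosome and lysosome glycoprotein, read 12.77 and 12.92 in PT against 15.28 and 15.25 in mVec and fell by 2.42 (SE 0.20, adjusted p = 6.7e-06).

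Fibroblast markers were seen mainly in mVec, and the smooth muscle signal there was mostly that of Acta2. Of the fibroblast markers 6 were called lower in PT (54.5%) and 1 higher (9.09%), against 18.7% and 18.6% of all genes. Of 11 measured fibroblast markers 5 were above background in mVec and 1 in PT, and their summed signal (log2 of the sum of linear values) was 17.09 and 17.25 on the mVec arrays against 11.86 and 12.18 in PT. Dcn, Fap, Col1a1 and Col3a1 were at background in PT, and Dpt, Thy1 and Pi16 were at background in both lines. Of 8 smooth muscle markers 2 were above background in mVec and 1 in PT, with summed signals of 16.62 and 16.70 against 12.40 and 12.63. Against mVec 3 of them were called lower in PT (37.5%) and 1, Smtn, higher (12.5%). The defining smooth muscle genes Myh11, Myocd and Cnn1 were at background in both lines, and so were all leukocyte, mast cell, keratinocyte and Schwann cell markers measured. Endothelial, neuron and adipocyte markers each had 1 member above background in mVec and 0 in PT. Their summed signals on the mVec arrays were 10.85 and 10.65, 10.68 and 10.76, and 10.27 and 10.34, against 7.34 and 6.98, 8.82 and 9.27, and 8.40 and 8.41 in PT. The falls of fibroblast and smooth muscle signal were not PT's alone. On the T arrays the summed signals were 12.54 and 12.71 for fibroblast markers and 12.8 and 12.7 for smooth muscle markers. In T, 6 fibroblast markers were lower than in mVec and 1 higher, with 2 and 1 smooth muscle markers. The part of all these markers in the falls below was not tested. In bulk RNA, fewer cells of a type and less RNA per cell cannot be told apart.

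In PT 3634 genes were called higher than in mVec (18.6% of all genes tested) and 3652 lower (18.7%), so that 37.4% of genes were called. The class counts below are to be read against these shares. Of 7369 genes above the limit on any PT or mVec array, 2784 were called higher and 2417 lower. Classes of mostly expressed genes therefore tend to hold more calls in both directions. By the fitted difference 497 rose and 791 fell by at least 8-fold on the deposited scale, a count that includes genes at background in 1 line. Above background in PT and on neither mVec array were 615 genes, of which 598 were called. Another 910 genes were above background in mVec and on neither PT array, of which 898 were called. A further 2085 called genes were above the limit on no array of either line, and for these no fold is given. The median difference over all genes was 0.09. Centring each array on its median moved it by 0.19 and the share of calls that were higher from 49.9% to 59.9%, so the near-equal split depends on the scaling. Of 11 widely used reference genes 3 were higher and 2 lower, with a median of -0.35. Hprt rose by 2.28, Tbp by 1.76 and Pgk1 by 1.21 in PT, Gusb fell by 1.68 and B2m by 0.99, and Actb (-0.31) and Gapdh (-0.38) did not pass.

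**Figure D1:**
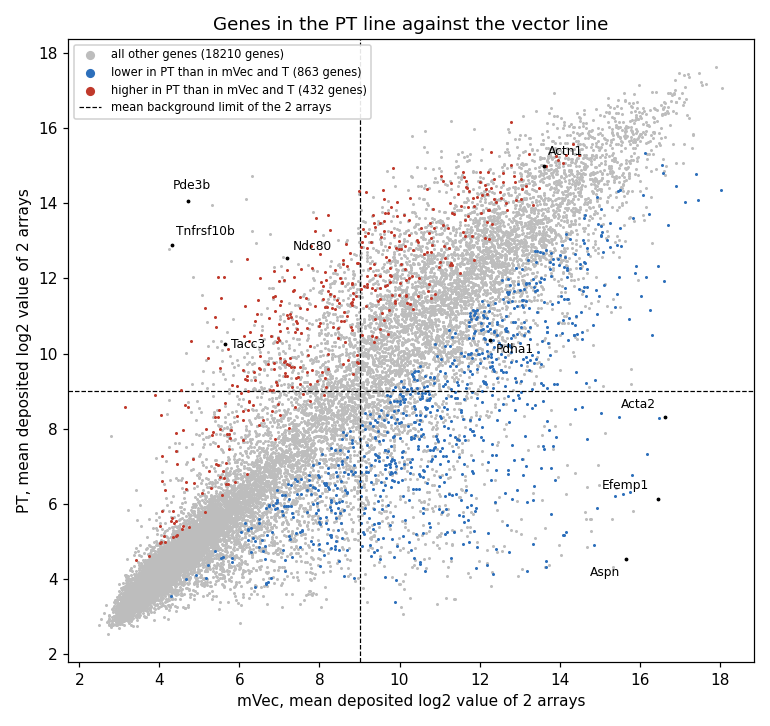
Mean deposited log2 value of each of 19505 genes in mVec (horizontal) and PT (vertical), with dashed lines at the mean background limit of each line's 2 arrays. The 432 genes called higher in PT than in both other lines (red) and the 863 called lower (blue) lie on both sides of the limits, and Aspn, Efemp1 and Acta2 stand at the far right, bright in mVec and under the limit in PT.

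The 15 largest rises by fitted difference were all of genes at background in mVec. Values below the limit set that order, so only the bounds measure size, and genes bright in both lines can exceed them. Pde3b, a phosphodiesterase that breaks down cyclic AMP, read 14.13 and 14.01 in PT and 4.40 and 5.05 in mVec, at least 33.6-fold higher. Gprc5a, an orphan receptor induced by retinoic acid, read 14.05 and 13.83 against 5.05 and 5.58, at least 30.7-fold higher. Tnfrsf10b, the mouse death receptor for TRAIL, read 13.02 and 12.78 against 4.33 and 4.29, at least 14.9-fold higher (limma adjusted p = 1.11e-08). In each of these genes both PT arrays lay above both mVec arrays, as the arrays of the lines did not overlap, in either direction, for 66% of all genes. The other 12 of the 15 largest rises were Phlda2, an imprinted gene of placental growth, Bcat1, a branched-chain aminotransferase, Foxr2, a forkhead factor known as an oncogene, Cpne8, a copine, Elovl4, a fatty acid elongase, Crabp2, a retinoic acid carrier, Rrp12, a ribosome assembly factor, Ciart, a clock repressor, Adm2, a peptide hormone, Chka, choline kinase, Cdc20, which drives anaphase onset, and Suv39h2, a histone H3 lysine methyltransferase. Their bounds ran from at least 5.87-fold for Adm2 to at least 52.9-fold for Bcat1, with adjusted p of 1.41e-06 for Adm2 at most.

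Few of the 15 were called higher in PT than in T. Tnfrsf10b was, at 11.56 and 11.15 on the T arrays, 2.90-fold higher in PT (limma adjusted p = 0.00438). Rrp12, Cdc20 and Suv39h2 were also called higher than T, by log2 differences of 1.48, 1.61 and 1.72. These calls were lost without single arrays, Rrp12 without PT replicate 1 (adjusted p = 0.0544) or PT replicate 2 (0.065), Cdc20 without PT replicate 2 (0.0629) or T replicate 2 (0.0687), and Suv39h2 without PT replicate 1 (0.0643), PT replicate 2 (0.0762) or T replicate 2 (0.0857). Crabp2 went the other way and was lower in PT than in T (difference -1.19, adjusted p = 0.0296), a call lost without PT replicate 1 (0.177), PT replicate 2 (0.0921) or T replicate 2 (0.173).

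The 15 largest falls, ranked in the same way, were all of genes at background in PT. Aspn, asporin, a small leucine-rich proteoglycan, read 15.62 and 15.68 in mVec and 4.51 and 4.56 in PT, at least 99.5-fold lower. Apod, apolipoprotein D, read 15.49 and 15.15 in mVec against 4.37 and 4.30 in PT, at least 79.3-fold lower. Efemp1, fibulin-3, read 16.43 and 16.49 in mVec against 6.32 and 5.97 in PT, at least 175-fold lower (limma adjusted p = 8.59e-09). The other 12 included Postn, Lama4 and Fap of the matrix and its remodelling, the cell-surface peptidases Mme and Cpm, Nfia, a nuclear factor I transcription factor, Dbp, a clock-output factor, the interferon-induced GTPases Iigp1 and Tgtp2, and Plxdc2, Trp53i11 and Mgst1. In each of these genes the mVec arrays were above background and the PT arrays were not. The smallest of these bounds was at least 24.5-fold lower, for Tgtp2.

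Much less set PT apart from T. Against T, 546 genes were called higher in PT (2.8% of genes tested) and 1164 lower (5.97%), in all 8.77% of genes, and the arrays of PT and T did not overlap for 51%. Called in the same direction against both mVec and T were 432 genes higher (2.21%) and 863 lower (4.42%). Both contrasts use the PT arrays, so these overlaps are a description. In all, 48 genes were above background in PT and on no array of the other lines, and 177 were above it in both other lines and on neither PT array. The counts against both lines leaned on single arrays, and fell to 149 higher and 280 lower without PT replicate 1, to 140 and 456 without PT replicate 2 and to 169 and 334 without T replicate 2.

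**Figure D2:**
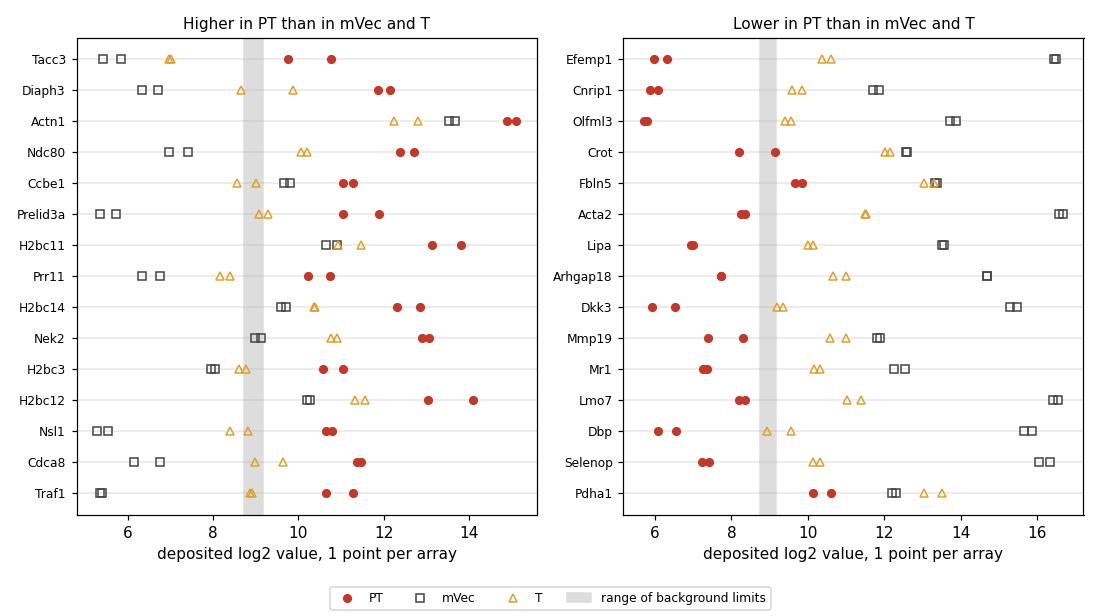
Deposited log2 values on each of the 6 arrays (PT filled circles, mVec squares, T triangles) for the 15 genes with the largest rise and the 15 with the largest fall against T among genes called in the same direction against both lines. The grey band is the range of the background limits, and T lies between mVec and PT for Tacc3, Ndc80 and Efemp1 and on the far side of mVec from PT for Actn1 and Pdha1. Genes were chosen so that the PT points overlap neither other line.

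Among genes higher in PT than in both lines, the largest differences from T were those of Tacc3, Diaph3, Actn1, Ndc80 and Ccbe1 (Actn1 and Ccbe1 are described further on). Tacc3, which stabilizes spindle microtubules, read 9.76 and 10.76 in PT, 5.42 and 5.84 in mVec and 6.96 and 7.01 in T. It was above background in PT alone and at least 2.40-fold higher than mVec and at least 2.69-fold higher than T (limma adjusted p = 0.000928 against T). Ndc80, the microtubule-binding subunit of the outer kinetochore, read 12.72 and 12.39 in PT, 7.41 and 6.96 in mVec and 10.21 and 10.06 in T, 5.34-fold higher than T (adjusted p = 0.000928). PT was highest and T intermediate for both genes. Nek2, a centrosome kinase, was 4.40-fold higher in PT than in T, and Prr11, a mitotic protein, at least 3.15-fold higher. Diaph3, a formin of the actin cortex, read 11.87 and 12.16 in PT against 8.65 and 9.87 in T, where 1 of 2 arrays was above background, and was 6.74-fold higher. Prelid3a, a mitochondrial lipid transfer protein, and Traf1, an adaptor of TNF receptors, were 4.87-fold and 4.22-fold higher than in T, where 1 of 2 arrays was above background for Traf1.

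Kinetochore genes rose together. In a list of 46 kinetochore and spindle checkpoint genes, chosen after values had been seen, 41 were called higher in PT than in mVec and 0 lower, with a median difference of 2.89 against 0.09 over all genes. Against T 22 of 46 were higher and 0 lower, with a median of 0.91 against 0.03 over all genes. That count fell to 9 without PT replicate 1, 12 without PT replicate 2 and 13 without T replicate 2. Nsl1, of the Mis12 complex, read 10.65 and 10.78 in PT and 5.54 and 5.30 in mVec, at least 3.28-fold higher. Against T, at 8.41 and 8.81 with 1 of 2 arrays above background, it was 4.30-fold higher, as was Cdca8, borealin of the chromosomal passenger complex. Spdl1, which recruits dynein to kinetochores, read 10.66 and 10.48 in PT, 6.27 and 6.26 in mVec and 8.93 and 8.31 in T, so that it was above background in PT alone. Of 38 kinesins, the microtubule motors, 16 were higher and 5 lower than in mVec. Kif23, needed for cytokinesis, read 13.43 and 13.19 in PT against 9.03 and 9.13 in mVec, where 1 of 2 arrays was above background, and was 18.7-fold higher. Against T 11 kinesins were higher and 1 lower, but only 2 were higher without PT replicate 1, and 4 without PT replicate 2 or T replicate 2. Cohesin and condensin subunits gave 14 higher and 1 lower of 24 against mVec, among them Ncapg (at least 7.55-fold) and Ncaph (at least 2.77-fold) of condensin I. The lower member lost its call without PT replicate 1 or mVec replicate 1. These rises against mVec were not PT's alone. In T, 37 of 46 kinetochore and spindle checkpoint genes were higher than in mVec and 0 lower. Kinesins gave 15 higher and 4 lower in T, and cohesin and condensin subunits 13 and 0.

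The motif TTTGAA, the core of the cell-cycle homology region that DREAM and MuvB complexes are known to bind, was counted on both strands in RefSeq promoter windows of 250 bases before to 50 bases after the start (GRCm38.p6). It was in 2790 of 15691 genes with a window (17.8%), in 10 of 13 H2B genes (76.9%), in 8 of 13 H2A genes (61.5%), in 17 of 40 kinetochore genes (42.5%), in 1 of 8 H3 genes, in 1 of 10 H4 genes, in 96 of 340 genes higher in PT than in both lines (28.2%) and in 102 of 701 lower than in both (14.6%). The 150 bases before the start of a pair of genes that hold it upstream are shown so that its place can be seen, with the motif or its reverse complement in capitals (Kntc1, a kinetochore scaffold, plus strand of chr5:123749576-123749725, and Pmf1, of the Mis12 complex, minus strand of chr3:88410398-88410547).
Kntc1: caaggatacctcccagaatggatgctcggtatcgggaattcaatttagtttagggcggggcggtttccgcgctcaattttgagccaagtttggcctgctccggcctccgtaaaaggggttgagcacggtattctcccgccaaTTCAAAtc
Pmf1: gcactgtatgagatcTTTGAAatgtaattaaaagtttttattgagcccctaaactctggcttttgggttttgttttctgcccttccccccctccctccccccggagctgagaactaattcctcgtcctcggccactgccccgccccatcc
In Kntc1 the motif starts 8 bases before the start and in Pmf1 135 bases before it. Kntc1 read 10.45 and 10.22 in PT, 6.38 and 6.11 in mVec and 8.88 and 9.19 in T, where 1 of 2 arrays was above background, 2.45-fold higher than T (limma adjusted p = 0.00845), a call lost without PT replicate 1 (0.0734). Pmf1 read 9.35 and 9.97 in PT, 7.23 and 7.37 in mVec and 7.69 and 8.21 in T, above background in PT alone. A motif match is a description of letters and not a bound site. Of the 13 H2B windows 7 overlap an H2A window, so the H2B and H2A counts are not independent.

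Most histone genes of the replication clusters were higher in PT than in mVec, and H2B and some H2A genes were also higher than in T. These genes, in lists by type chosen after values had been seen, encode the histones made during DNA synthesis. Against mVec 12 of 15 H2B genes, 12 of 13 H2A genes, 9 of 10 H3 genes and 10 of 11 H4 genes were higher, and 2 H2B genes were lower, 1 of them without PT replicate 1 or mVec replicate 2. Without mVec replicate 2 also 1 H3 gene was lower. Against T 10 of 15 H2B and 5 of 13 H2A genes were higher and 0 of 10 H3 and 0 of 11 H4 genes, with median differences of 1.28, 0.86, 0.50 and 0.51. A test of one type against another was not made. H2bc12 read 13.04 and 14.09 in PT, 10.27 and 10.19 in mVec and 11.33 and 11.55 in T, 4.36-fold higher than T (limma adjusted p = 0.00484). H2bc14 read 12.30 and 12.85 in PT, 9.70 and 9.60 in mVec and 10.36 and 10.38 in T, 4.61-fold higher than T (adjusted p = 0.00127). H2bc18 read 12.53 and 12.82 in PT, 8.72 and 8.78 in mVec and 10.83 and 11.17 in T, 3.19-fold higher than T (adjusted p = 0.00283). The PT arrays were above both other lines for all 3. The H2B count against T fell to 6 without T replicate 2, and the H2A count ranged from 0 (without PT replicate 2 or T replicate 2) to 3 when 1 array was left out. Histone copies are near-identical, so probe sets may share signal and single members are uncertain.

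**Figure D3:**
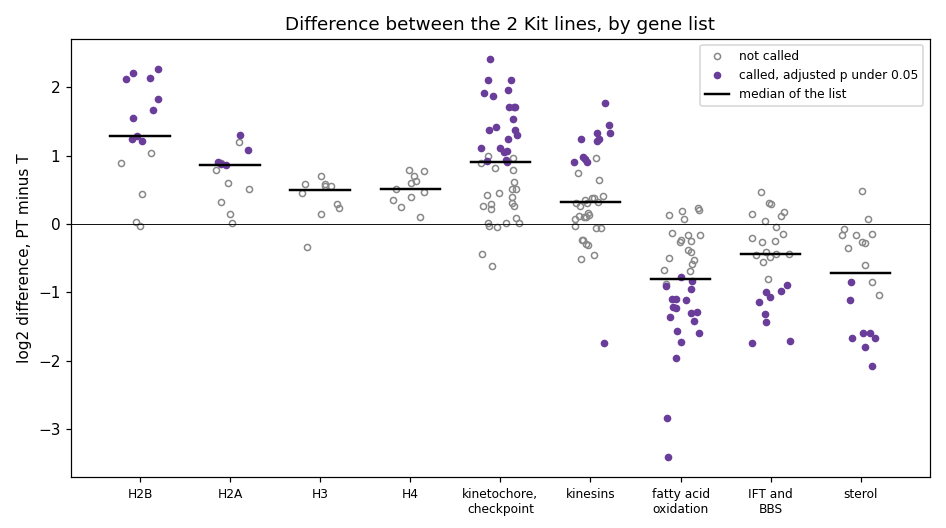
Log2 difference of PT minus T for each member of 9 gene lists, with filled points for members called at an adjusted p under 0.05 and a bar at the list's median. H2B genes (median 1.28) and kinetochore genes (0.91) lie mostly above 0 with many calls, H3 and H4 genes have 0 calls, and fatty acid oxidation genes (-0.80) lie mostly below 0.

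The octamer ATTTGCAT, the site of POU2F1 (Oct-1) in H2B promoters, was counted in the same windows on both strands. It was in 302 of 15691 genes (1.92%), 6 of 13 H2B genes, 6 of 13 H2A genes, 0 of 8 H3 genes and 0 of 10 H4 genes with a window. H2A and H2B genes often share a divergent promoter, and 7 of the 13 H2B windows overlap an H2A window, so the equal counts are not independent. The 150 bases upstream of 3 H2B genes show the octamer in capitals close to the start (plus strands of chr13:22035671-22035820, chr13:21721894-21722043 and chr3:96269550-96269699).
H2bc12: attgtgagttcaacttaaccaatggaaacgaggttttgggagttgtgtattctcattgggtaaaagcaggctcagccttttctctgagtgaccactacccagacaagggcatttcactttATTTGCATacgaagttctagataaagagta
H2bc14: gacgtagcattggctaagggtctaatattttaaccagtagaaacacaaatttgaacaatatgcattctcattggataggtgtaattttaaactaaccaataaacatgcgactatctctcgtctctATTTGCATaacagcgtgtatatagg
H2bc18: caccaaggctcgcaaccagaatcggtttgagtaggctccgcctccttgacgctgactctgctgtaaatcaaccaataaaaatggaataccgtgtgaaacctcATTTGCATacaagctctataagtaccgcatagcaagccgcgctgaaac
The octamer starts 30, 25 and 48 bases before the start in H2bc12, H2bc14 and H2bc18. The CCAAT box, searched as CCAAT, was in all 13 H2B, all 13 H2A and all 8 H3 windows, in 3 of 10 H4 windows and in 42.2% of all genes with a window. An E2F site, searched as TTTCGCGC, was in 0.554% of all genes with a window. It was in 4 of 13 H2B, 4 of 13 H2A, 0 of 8 H3, 0 of 10 H4 and 0 of 40 kinetochore windows. The E-box CACGTG was in 9.26% of all genes, 3 of 40 kinetochore genes and 0 of these histone genes.

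Among genes lower in PT than in both lines, the largest differences from T were those of Efemp1, Cnrip1, Olfml3 and Crot, a peroxisomal enzyme described with fatty acid oxidation. Efemp1 was intermediate in T, at 10.36 and 10.60, and at least 2.77-fold lower in PT (limma adjusted p = 9.49e-05). Acta2, smooth muscle actin, read 16.58 and 16.67 in mVec, 11.49 and 11.52 in T and 8.25 and 8.36 in PT, at least 196-fold lower than mVec and at least 5.62-fold lower than T (adjusted p = 0.000112). Lmo7, an actin-junction protein, read 16.54 and 16.42 in mVec, 11.03 and 11.38 in T and 8.36 and 8.20 in PT. These 3 genes had the same order of lines, with T between the others. Fbln5, fibulin-5 of elastic fibres, did not follow that order and read 13.33 and 13.37 in mVec, 13.04 and 13.30 in T and 9.67 and 9.86 in PT, 10.6-fold lower than T (adjusted p = 0.000112). Also at background in PT and above it in both other lines were Olfml3, a secreted matrix protein, Dkk3, of the Dickkopf family, Mmp19, a matrix metalloproteinase, Cnrip1, which binds the cannabinoid receptor, Lipa, the lysosomal acid lipase, Arhgap18, a RhoA inhibitor, Mr1, which presents vitamin B metabolites to T cells, Dbp and Selenop. Their folds against T ran from at least 1.17-fold lower for Dbp to at least 3.51-fold lower for Arhgap18.

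Most fatty acid oxidation genes were lower in PT. This list of 38 enzymes and carriers that break down fatty acids in mitochondria and peroxisomes, chosen after values had been seen, had 28 members lower and 4 higher in PT than in mVec (2 higher without mVec replicate 1 or mVec replicate 2), with a median of -1.52. Cpt1a, which commits fatty acids to mitochondrial entry, read 12.12 and 11.71 in mVec, 7.41 and 7.51 in T and 6.02 and 5.79 in PT, at least 7.48-fold lower than mVec (limma adjusted p = 5.98e-08). Acadm, medium-chain acyl-CoA dehydrogenase, read 12.002 and 12.14 in mVec, 9.84 and 9.73 in T and 8.05 and 8.05 in PT, at least 8.33-fold lower than mVec and at least 1.71-fold lower than T. Both were at background in PT. Crot, which exports acyl groups from peroxisomes, read 12.59 and 12.58 in mVec, 12.02 and 12.14 in T and 8.20 and 9.14 in PT, where 1 of 2 arrays was above background, 15.1-fold lower than mVec and 10.6-fold lower than T (adjusted p = 0.000505). Hadh, a dehydrogenase for short chains, read 11.77 and 11.85 in mVec, 11.68 and 12.03 in T and 9.83 and 9.96 in PT, 3.77-fold lower than mVec and 3.89-fold lower than T. For Crot and Hadh the T arrays stood near the mVec arrays. The list as a whole was also lower in T, where 18 of 38 members were lower than in mVec and 4 higher. The median there was -0.54.

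Against T 19 of 38 members were lower and 0 higher, with a median of -0.80, and 18 of the 19 were also lower than in mVec. The exception, Acox2, a peroxisomal oxidase, read 8.16 and 7.78 in PT, 7.28 and 7.15 in mVec and 10.71 and 10.90 in T, and its PT signal exceeded that of mVec (adjusted p = 0.0222) with both at background. The count against T fell to 6 without PT replicate 1, 12 without PT replicate 2 and 8 without T replicate 2. The trifunctional protein subunits did not take part, with Hadha at -0.20 (adjusted p = 0.505) and Hadhb at 0.38 (adjusted p = 0.202) against mVec.

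**Figure D4:**
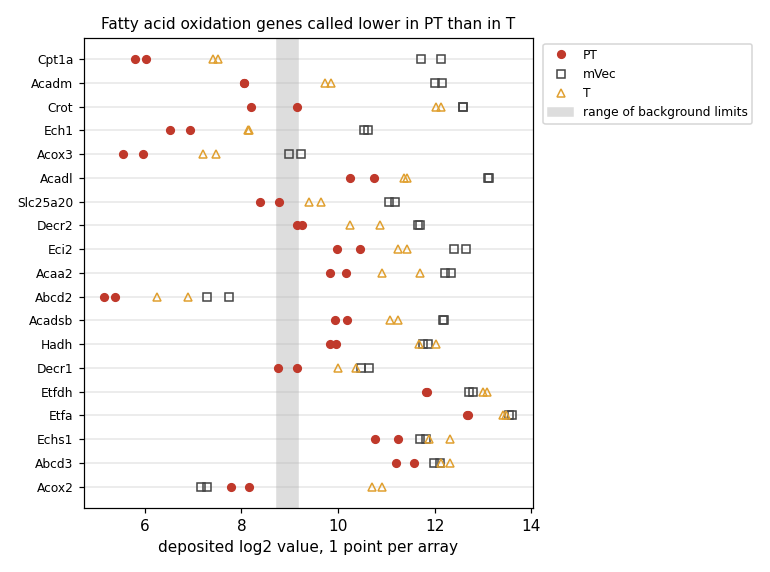
Deposited log2 values on each array (PT filled circles, mVec squares, T triangles) for the 19 fatty acid oxidation genes called lower in PT than in T, ordered by the difference from mVec, with the background limits as a grey band. PT lies left of T in all 19 and left of mVec in 18, the exception being Acox2.

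Other metabolic lists split. Of 20 sterol synthesis and control genes, a list also chosen after values had been seen, 7 were higher and 7 lower than in mVec. Msmo1, a sterol oxidase, was at least 16.3-fold higher, at 12.83 and 13.23 against 8.89 and 8.48. Insig1, the retention factor of the sterol sensor, read 10.88 and 10.84 against 13.57 and 13.68 and was 6.81-fold lower. Against T 8 of 20 were lower and 0 higher (5 without PT replicate 2), among them Nsdhl (4.23-fold), a sterol dehydrogenase, and Hmgcs1 (3.19-fold), an early enzyme of the pathway. Of 36 sphingolipid enzymes 6 were higher and 15 lower than in mVec. Cers4, a ceramide synthase, fell from 13.52 and 13.67 to background at 8.46 and 7.71, while Acer3, an alkaline ceramidase, rose 6.63-fold. Of 23 selenoproteins 7 were higher and 8 lower (4 higher without PT replicate 2, mVec replicate 1 or mVec replicate 2), and the fall of Selenop, the plasma selenium carrier, from 16.06 and 16.33 to 7.41 and 7.23, was at least 145-fold. Selenom, of the endoplasmic reticulum, was at least 9.85-fold lower, and both were lower than in T. In T, 9 sterol genes were higher than in mVec and 3 lower, with 6 and 11 sphingolipid enzymes and 6 and 8 selenoproteins. Of the 8 sterol genes lower in PT than in T, 5 were also lower than in mVec.

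The lines moved to opposite sides of mVec for few genes. PT was above and T below mVec for 5 genes, and PT below and T above for 17, where T differed from mVec in 33.8% of all genes. Pdha1, the catalytic subunit of pyruvate dehydrogenase, read 10.13 and 10.62 in PT, 12.31 and 12.20 in mVec and 13.05 and 13.51 in T. It was 3.67-fold lower in PT than in mVec and 7.47-fold lower than in T (limma adjusted p = 0.000505). Actn1, alpha-actinin-1 of stress fibres, read 14.88 and 15.09 in PT, 13.67 and 13.53 in mVec and 12.81 and 12.24 in T, 5.51-fold higher than in T (adjusted p = 0.00096). Neither gene's arrays overlapped between any pair of lines. Ccbe1, a secreted factor of lymphatic growth, read 11.28 and 11.05, 9.65 and 9.80, and 9.004 and 8.56 in the same order, with 1 of the T arrays above background. Fam111a, a protease of replication forks, rose by 1.11 and Fbxw2, an F-box substrate adaptor, fell by 1.22 against mVec. Scnm1 and Lsm14b, of RNA processing, Isoc1, and Pigg, of GPI anchor synthesis, were lower in PT, with differences of -0.96, -0.90, -0.83 and -0.82. Their calls against mVec were lost without single arrays (Scnm1 without PT replicate 1, adjusted p = 0.0511, or mVec replicate 2, 0.0503; Lsm14b without PT replicate 1, 0.213, mVec replicate 1, 0.115, or mVec replicate 2, 0.1). Isoc1 lost its call without PT replicate 2 (0.0605), mVec replicate 1 (0.0691) or mVec replicate 2 (0.0513), and Pigg without PT replicate 2 (0.0979), mVec replicate 1 (0.106) or mVec replicate 2 (0.0583).

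RNA-handling classes had more members higher than lower against mVec. Of 77 splicing factors 48 were higher and 0 lower, with a median of 0.94. Snrpa1, of the U2 particle, read 14.58 and 14.72 in PT against 11.16 and 10.90, 12.3-fold higher. Against T the class split 5 higher and 5 lower, and with 1 array left out these counts were 0 to 2 and 0 to 4. A list of 14 genes covered the RNA exosome, which trims and degrades RNA from its 3′ end, and related factors. Of these 11 were higher and 1 lower, with a median of 2.01. Dis3, the exosome nuclease, read 15.51 and 15.49 against 10.66 and 10.58, 29.4-fold higher. The lower member was Dis3l2, a related nuclease that is not an exosome subunit, at background in PT (8.18 and 8.27). Of 48 DEAD and DEAH box helicases 29 were higher and 8 lower (5 lower without PT replicate 1, mVec replicate 1 or mVec replicate 2). Ddx21, a nucleolar helicase, was 29.5-fold higher, and Ddx58, the RIG-I sensor, 13.2-fold lower. Of 76 tRNA and rRNA modifying enzymes 31 were higher and 11 lower, with Nsun5, an rRNA methyltransferase, at least 15-fold higher. Against T, where 2.8% of all genes were higher and 5.97% lower, the exosome list gave 0 higher and 1 lower, again Dis3l2. The helicases gave 3 and 3, and the modifying enzymes 5 and 8. Without PT replicate 1 these became 0 and 0, 1 and 1, and 2 and 2, without PT replicate 2 the modifying enzymes gave 1 and 3, and without T replicate 2 they gave 1 and 2.

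Supply classes went the same way. Of 35 mitochondrial import genes 22 were higher and 2 lower than in mVec (0 lower without PT replicate 1 or mVec replicate 1, and 1 without PT replicate 2), led by Timm8a1, an intermembrane chaperone, at 14.57 and 14.90 against 10.32 and 10.27, 21.6-fold higher. Of 23 pyrimidine genes 13 were higher and 5 lower. Ctps, CTP synthase, was 20.7-fold higher, its paralog Ctps2 5.69-fold lower, and Cmpk2, an interferon-induced kinase, was at background in PT at 4.50 and 4.64. Of 18 polyamine genes 11 were higher and 4 lower. Srm, spermidine synthase, was 18.3-fold higher and Odc1, ornithine decarboxylase, 6.26-fold higher, while Sat1, which acetylates polyamines for export, was 4.44-fold lower. Solute carriers as a whole stayed at the background share, with 67 higher and 64 lower of 360. The rises of the supply classes were not PT's alone. In T, 23 mitochondrial import genes were higher than in mVec and 0 lower, with 14 and 6 pyrimidine genes and 9 and 3 polyamine genes.

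**Figure D5:**
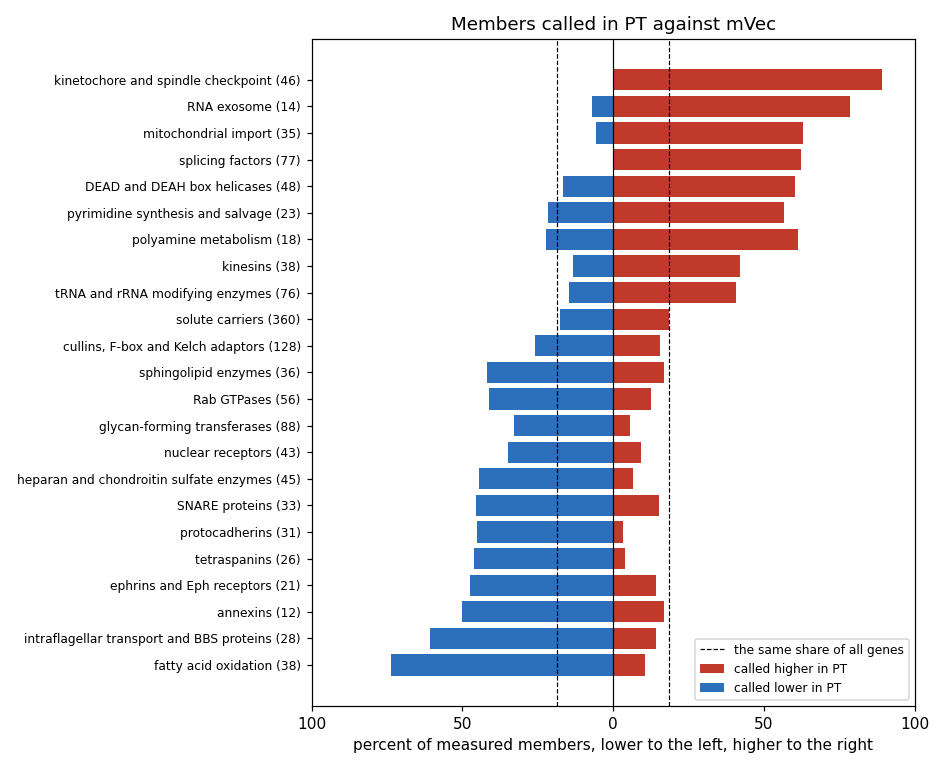
Share of measured members called higher (red, right) or lower (blue, left) in PT than in mVec for 23 gene classes, with the number measured in brackets and dashed lines at the shares over all genes (18.6% higher, 18.7% lower). Classes of mitosis and RNA handling lie at the top with 41 of 46 and 11 of 14 members higher, and fatty acid oxidation and intraflagellar transport lie at the bottom with 28 of 38 and 17 of 28 lower.

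Cell-surface families had more members lower than higher. Of 31 protocadherins, which are homophilic adhesion proteins, 14 were lower and 1 higher (0 higher without PT replicate 2, mVec replicate 1 or mVec replicate 2), and 0 were above background in PT against 7 in mVec. Pcdh7 read 14.11 and 14.11 in mVec and 4.97 and 5.38 in PT, at least 34.2-fold lower. Of 26 tetraspanins 12 were lower and 1 higher. Cd81 read 17.46 and 17.46 in mVec and 14.06 and 14.13 in PT, and so fell 10.3-fold while staying bright. Of 21 ephrins and Eph receptors 10 were lower and 3 higher, and the largest change was upward, since Epha2 read 14.74 and 15.16 in PT against 9.81 and 9.86, 34.6-fold higher. Of 19 Slit, Robo, netrin, Unc5 and Flrt genes of axon guidance 9 were lower and 0 higher, among them Flrt3, at least 1.74-fold lower, and Flrt2, 8.59-fold lower. Annexins, which bind membranes with calcium, gave 6 lower and 2 higher of 12. Anxa3 was higher by 5.13 on the log2 scale, at 14.20 and 14.38 against 9.21 and 9.11, and Anxa6 at least 23.7-fold lower, at 7.30 and 7.77 against 13.53 and 13.63. Of 8 galectins 4 were lower and 2 higher, with Lgals9 at least 18-fold lower and Lgals3 2.70-fold higher. Most of these falls were not PT's alone. In T, 12 protocadherins were lower than in mVec and 0 higher, with 14 and 2 tetraspanins and 11 and 2 ephrins and Eph receptors. The axon guidance genes gave 8 lower and 1 higher in T, annexins 6 and 2, and galectins 2 and 2.

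Enzymes that build or trim sugar chains were called lower more often than higher, though most members did not pass. Of 45 heparan and chondroitin sulfate enzymes 20 were lower and 3 higher (1 higher without PT replicate 2, mVec replicate 1 or mVec replicate 2), with a median of -0.39. Of 88 other glycan-forming transferases 29 were lower and 5 higher, with a median of -0.04. Sulf1, an extracellular sulfatase, read 11.31 and 10.97 in mVec and 5.43 and 4.98 in PT, at least 4.37-fold lower. St6gal1, a sialyltransferase, read 11.47 and 11.71 against 5.33 and 6.01, at least 5.97-fold lower. Ndst3, a heparan sulfotransferase, stood out by its direction, above background in PT alone at 9.63 and 9.64 against 7.84 and 7.18 in mVec and 8.05 and 7.60 in T. The class counts were alike in T, where 19 heparan and chondroitin sulfate enzymes were lower than in mVec and 3 higher. For the other transferases T gave 29 lower and 7 higher.

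Cilium and vesicle genes fell more often than they rose. Of 28 intraflagellar transport and BBS genes, which build and sort cargo into primary cilia, 17 were lower and 4 higher than in mVec, with a median of -1.05. Ift27 read 10.01 and 10.20 in mVec and 7.04 and 7.08 in PT, at least 2.13-fold lower. Ift20 read 13.64 and 13.42 in mVec, 13.50 and 13.99 in T and 11.90 and 12.12 in PT, 2.86-fold lower than mVec and 3.33-fold lower than T (limma adjusted p = 0.00328 against T). For Ift20 the PT arrays were below those of both other lines. Against T 9 of 28 were lower and 0 higher, but 3 without PT replicate 1, 2 without PT replicate 2 and 4 without T replicate 2. Dyneins gave 11 lower and 1 higher of 29, SNARE proteins 15 and 5 of 33 (3 higher without PT replicate 1 or mVec replicate 2, and 2 without PT replicate 2 or mVec replicate 1), and Rab GTPases 23 and 7 of 56. Rab27b, which acts in the release of secretory vesicles, read 10.87 and 10.76 in mVec and 6.47 and 6.53 in PT, at least 3.49-fold lower. In T, 6 dyneins were lower than in mVec and 1 higher, with 11 and 3 SNARE proteins and 20 and 8 Rab GTPases. T also had 11 intraflagellar transport and BBS genes lower than mVec and 5 higher.

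Regulators showed mixed counts. Of 43 nuclear receptors 15 were lower and 4 higher (2 higher without PT replicate 2, mVec replicate 1 or mVec replicate 2). Rarb, a retinoic acid receptor, read 12.54 and 12.57 in mVec and 5.45 and 5.65 in PT, at least 11.6-fold lower. Of 27 Notch pathway genes 10 were lower (37%, against 18.7% of all genes) and 4 higher (14.8%, against 18.6%). The Notch targets Hes1 and Hey1 were at background in PT at 5.62 and 5.88 and at 5.39 and 5.17. Of 128 cullins, F-box and Kelch adaptors of ubiquitin ligases 20 were higher (15.6%, against 18.6% of all genes) and 33 lower (25.8%, against 18.7%). With median centring of the arrays the counts were 29 and 27, so the direction of this class is not settled. Fbxo32, atrogin-1, a FOXO target, was at least 5.76-fold lower, and Skp2, which marks the inhibitor p27 for destruction, 9.02-fold higher. Of 12 immediate early and stress genes 9 were lower and 1 higher. Fos read 14.02 and 14.33 in mVec and 6.85 and 7.23 in PT, and Atf3 rose to 12.02 and 12.43 from 7.67 and 8.004. In T, 15 nuclear receptors were lower than in mVec and 4 higher, and 9 Notch pathway genes were lower and 2 higher. The cullins, F-box and Kelch adaptors gave 24 lower and 22 higher in T, and the immediate early and stress genes 9 and 2.

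Several large families were mostly at background in all 3 lines, where 5796 of 19505 genes were above it in PT. Above background were 0 of 90 potassium channels in PT, 2 in mVec and 1 in T. Hox genes gave 0, 0 and 1 of 33 in the same order, keratins 1, 0 and 0 of 49, and germline genes 3, 5 and 3 of 80. Cytochrome P450 enzymes gave 3, 7 and 4 of 96, and G protein-coupled receptors outside smell and taste 17, 25 and 20 of 229. The keratin was Krt80, at 9.64 and 10.04 in PT against 5.47 and 4.86 in mVec. At the other end, the 10 brightest PT genes among those called with a difference of at least 1 in size all rose, by 1.05 to 3.07. Ranking by the PT value favours genes that rose, so their shared direction is not a finding. Ppid, a cyclophilin chaperone, rose from 14.11 and 13.63 to 16.93 and 16.94, an increase of 3.07. Eprs, a tRNA synthetase, rose by 1.05, Got2, mitochondrial aspartate aminotransferase, by 1.34, and Asns, asparagine synthetase, by 1.41.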

How the data were processed

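Affymetrix Clariom S arrays measured RNA of 6 samples, 2 in each of 3 groups. The authors deposited log2 values, 1 per probe set and array. The software and normalization are not given here by any label or header. Of 28846 rows, 22206 gene probe sets were tested without a filter on low values, 19572 of them with 1 symbol and 2634 with none; probe sets were named from the platform annotation. Symbols name 19505 genes, 76 of which share their values with another probe set.

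R 4.3.3 and limma 3.58.1 fitted the 3 group means in 1 model over all 6 arrays, with 3 residual and 6.36 prior degrees of freedom. P-values are two-sided, adjusted by Benjamini-Hochberg over all gene probe sets within each contrast. The script was tested on simulated data. The number of arrays limits the precision. Same-numbered arrays did not deviate together (r = 0.0396 between PT and mVec), so numbers were not used as pairs.

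Members and gene lists were chosen with earlier results of these data known. Genes are named by rule: the 15 largest rises and falls against mVec, and, among genes called in the same direction against both lines, against T, with non-overlapping arrays and the brighter group above background; genes on opposite sides of mVec; the 10 brightest; and up to 4 members of each class per contrast. Other members named, and corrections to class members matched wrongly by symbol, were chosen after values were seen. Promoter sequences are RefSeq's for GRCm38.p6. Alternatives tried were other normalizations, an intensity trend, a background filter, fewer arrays and a replicate block.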

Additional observations from a re-analysis of the deposited data

Results flagged for a closer look

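Results that differed between the 2 Kit lines, by the limma test of PT minus T, are given here as values. The difference was called in the same direction as that from mVec for 432 genes higher and 863 lower in PT. Among named genes that stood on opposite sides of mVec, PT exceeded T by 2.46 (log2) for Actn1, 2.38 for Ccbe1 and 1.81 for Fam111a. PT was below T for Pdha1 (-2.90), Lsm14b (-2.46), Fbxw2 (-2.10), Scnm1 (-1.96), Pigg (-1.75) and Isoc1 (-1.67). Groups of 2 arrays are too small for a test of single outlying arrays.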

How the results depend on the processing

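The counts against mVec stayed within 1.5 times of 3634 higher and 3652 lower under every alternative tried, from 2910 to 3733 and from 3040 to 3727 with 1 array left out. Counts against T moved: with 1 array left out they ran from 162 to 503 higher and 341 to 1029 lower, and those against both lines from 140 to 332 higher and 280 to 713 lower. With an intensity trend 870 genes were higher than T and 658 higher than both. At the 99th percentile of negative controls 2227 genes were above background on both PT arrays. Of 408 class counts, taken in each direction against mVec and T, 357 stayed within 1.5 times with centred arrays and 348 with an intensity trend. With the background filter, which drops members at background, 257 did, and without PT replicate 1 272 did. Quantile normalization moved the share of calls against T that were higher from 31.9% to 40.8%. The replicate block gave 3659 higher and 3687 lower against mVec and 538 and 1140 against T, and left 19 of 785 results for single genes uncalled. The cause of these shifts was not tested. Uncalled markers at background changed sign. With centred arrays Slc45a2 moved to 0.15, Tyrp1 to 0.16 and Sox10 to 0.12. With 1 array left out the differences ran from -0.18 to 0.11 for Slc45a2, from -0.23 to 0.094 for Sox10, from -0.079 to 0.36 for Tyr and from -0.17 to 0.12 for Tyrp1.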
